A study of Homo sapiens with 4 samples.

Results

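The genes for the HUSH complex and for H3K9 methyltransferases were examined in TT-Seq counts from HCT116 cells. The cells had KAP1 or, as the paper reports from western blots, were depleted of most of it. They are the 8 genes TASOR, MPHOSPH8, PPHLN1, MORC2, ATF7IP, EHMT1, EHMT2 and SUV39H2, chosen by name and found in the count table by their Ensembl identifiers, out of 19901 protein-coding genes. All 8 were among the 12612 tested genes, which had at least 50 counts in all 4 libraries. In TT-Seq, cells take up the nucleoside 4-thiouridine (4sU) for a few minutes, and the transcripts that contain it are purified and sequenced. All 4 libraries are from the human colon cancer line HCT116 and carry the genotype KAP1_dTAG_CloneD5, 1 clone in which KAP1 is fused to a degron tag. A pair of libraries came from cells given the vehicle DMSO for 8 h and a pair from cells given dTAG (dTAG-13, 500 nM) for 8 h, a compound that sends the tagged KAP1 protein to the proteasome. In both groups 4sU was present for the last 10 min at 500 μM. The methods describe the 2 libraries of a group as biological replicates.

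HUSH (human silencing hub) is built from TASOR, MPHOSPH8 (MPP8) and PPHLN1 (periphilin). It binds chromatin that carries H3K9me3, a histone mark of silent regions, and silences retroelements and other intronless DNA with the help of the ATPase MORC2 and of the methyltransferase SETDB1, which ATF7IP holds in the nucleus. KAP1, brought to DNA by KRAB zinc finger proteins, recruits SETDB1 too, so that both routes meet at the same enzyme. EHMT1 (GLP) and EHMT2 (G9a) form a dimer that adds the lower methylation states of H3K9, and SUV39H2 adds H3K9me3 in pericentromeric chromatin.

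Gene counts per library were between 93105627 and 102314741. Nascent RNA of TRIM28, which encodes KAP1, was lower with dTAG (log2 fold change -0.37, standard error 0.092, adjusted p = 0.019, and from 4.4e-08 to 0.88 over the alternative settings), and since dTAG acts on the protein this does not check the labels. TRIM28 turned to 0.28 with ERCC totals as library sizes. Among other settings it was not called with an ERCC factor as a covariate (-0.19, adjusted p = 0.13 in the edgeR quasi-likelihood fit). Nor was it called after removal of trends on GC content and gene length (-0.10). It was also not called without dTAG replicate 1 (-0.45) or without dTAG replicate 2 (-0.30), in fits that called few genes of any kind. All 6 epithelial markers looked at were over the count minimum, with KRT8 between 362 and 438 CPM, whereas 5 of 8 markers of blood, endothelial and fibroblast cells were under it and PTPRC had 0 or 1 count in each library. CPM are gene counts relative to a library size that was scaled by edgeR's TMM method. Counts cover whole genes, introns included, and the strand was resolved: all 265 genes that lie wholly inside 1 other gene of the table on the same strand had 0 counts, compared with 110 of 500 such genes on the opposite strand.

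The promoters of MORC2 and ATF7IP, the genes that changed with dTAG, are shown with that of SUV39H2, the gene with the highest log2 fold change of the 8. The windows run from 250 bases before to 50 bases after a RefSeq start (GRCh38.p14), 5′ to 3′ on the strand of the gene. Capitals mark the CCAAT box bound by NF-Y (CCAAT, or ATTGG on the other strand), the CRE (TGACGTCA) and the YY1 motif (AAGATGGCG).
MORC2, chr22:30968725-30969024, minus strand: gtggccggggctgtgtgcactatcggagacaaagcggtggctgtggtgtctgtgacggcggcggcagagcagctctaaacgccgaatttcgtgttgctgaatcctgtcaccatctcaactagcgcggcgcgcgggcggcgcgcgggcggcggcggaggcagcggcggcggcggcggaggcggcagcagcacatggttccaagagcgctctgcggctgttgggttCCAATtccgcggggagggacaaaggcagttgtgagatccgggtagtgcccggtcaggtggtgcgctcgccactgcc
ATF7IP, chr12:14365432-14365731, plus strand: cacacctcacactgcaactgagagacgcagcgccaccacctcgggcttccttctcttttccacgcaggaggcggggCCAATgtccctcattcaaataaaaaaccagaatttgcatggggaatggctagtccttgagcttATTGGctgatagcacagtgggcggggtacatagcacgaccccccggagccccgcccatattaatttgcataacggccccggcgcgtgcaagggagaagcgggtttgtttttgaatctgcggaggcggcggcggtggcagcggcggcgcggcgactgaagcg
SUV39H2, chr10:14878616-14878915, plus strand: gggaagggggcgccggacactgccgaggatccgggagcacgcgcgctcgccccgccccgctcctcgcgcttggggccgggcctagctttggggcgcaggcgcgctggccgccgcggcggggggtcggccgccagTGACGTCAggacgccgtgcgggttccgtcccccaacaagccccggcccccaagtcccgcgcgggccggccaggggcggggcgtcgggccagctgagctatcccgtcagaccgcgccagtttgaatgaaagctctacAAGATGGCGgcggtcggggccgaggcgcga

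A CCAAT box on either strand was found at the starts of 4 of the 8 genes, namely TASOR, MPHOSPH8, MORC2 and ATF7IP, and in 34.6% of all 35116 promoters in the RefSeq table. ATF7IP and MPHOSPH8 had 2 such boxes each. The CRE and the YY1 motif were found in SUV39H2 alone of the 8, and in 1.85% and 1.75% of all promoters. The ETS motif CCGGAAG was found in PPHLN1 alone of the 8 and in 10.3% of all promoters, and neither the E2F motif TTTCCCGC nor the AP-1 motif TGACTCA was found in any of the 8. No pair of these motifs shared bases in the windows shown. GC contents of the 8 windows ran from 59.3% in ATF7IP to 79.3% in EHMT1, and the median of all promoters was 58.7%. The RefSeq start lay within 51 bases of the start of the counted gene for 6 of the 8 genes, 476 bases from it for MORC2 and 87721 bases from it for PPHLN1, whose counted interval begins far upstream.

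Nascent RNA of the 2 cofactors of HUSH was lower with dTAG, and that of none of the 8 genes was higher, at an adjusted p under 0.05. All 4 libraries are from the tagged clone, so the compound and the loss of KAP1 cannot be told apart. MORC2 fell 1.36-fold and ATF7IP fell 1.26-fold relative to the other genes, since with ERCC totals as library sizes the signs of both turned while the median of all genes moved to 0.63 on the log2 scale. Of all tested genes, 3.66% passed this threshold downwards and 3.44% upwards in the edgeR quasi-likelihood fit. At an unadjusted p under 0.05, 5 of the 8 genes passed (TASOR, MORC2, ATF7IP and EHMT2 lower, SUV39H2 higher), against 26.6% of all tested genes. DESeq2 called MORC2 and ATF7IP lower, and 4.54% of all tested genes. The subunits of HUSH and the 3 methyltransferases did not pass an adjusted p of 0.05 in either tool. The median log2 fold change was -0.081 for the 8 genes and -0.015 for all tested genes. Relative to the mean log2 CPM with DMSO, the median of the 8 genes was 0.049 (DMSO replicate 1), -0.049 (DMSO replicate 2), -0.11 (dTAG replicate 1) and -0.045 (dTAG replicate 2). Both dTAG libraries were below both DMSO libraries for TASOR, MORC2, ATF7IP and EHMT2, a pattern seen in 30.7% of all tested genes. Both were above for PPHLN1, EHMT1 and SUV39H2, a pattern seen in 28.1% of all tested genes. In MPHOSPH8 the groups overlapped.

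**Figure D1:**
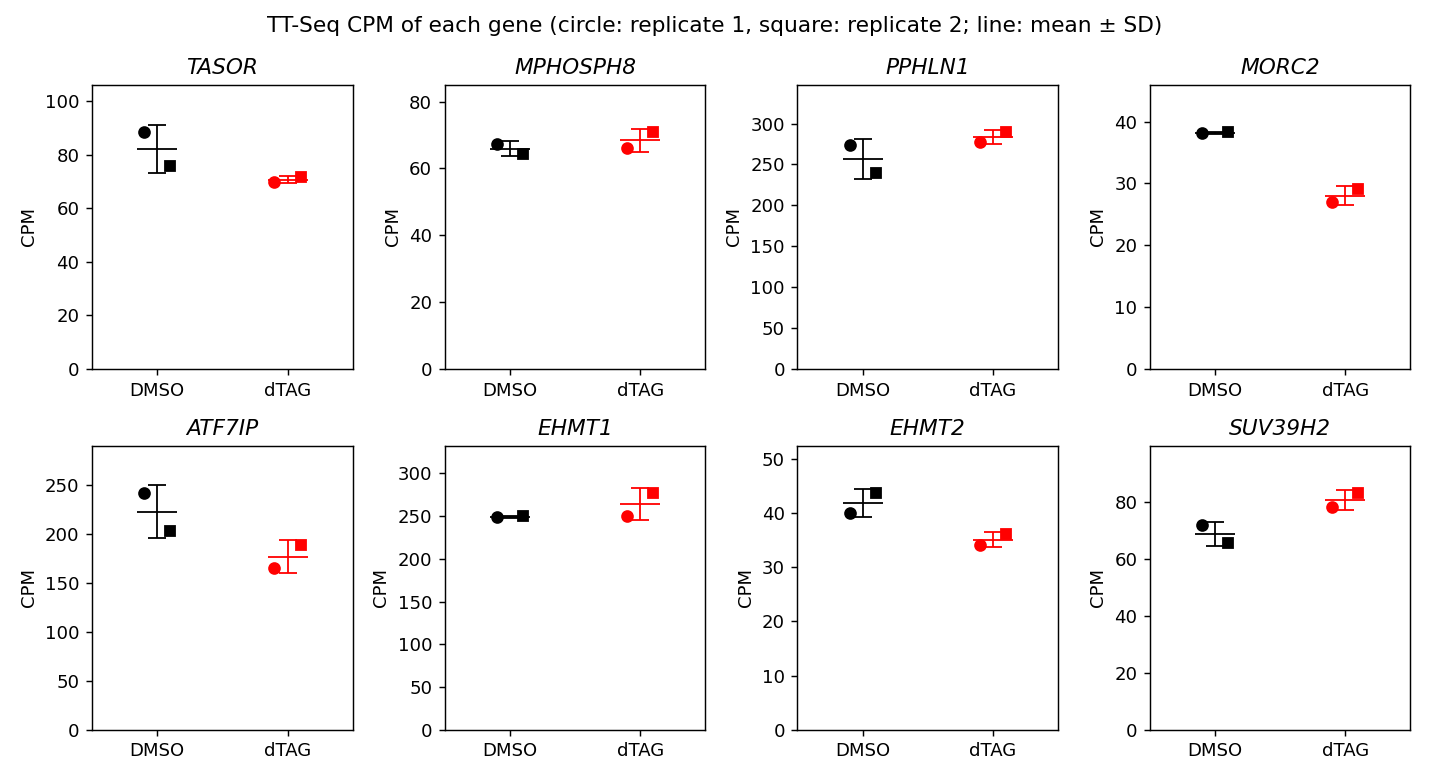
TT-Seq level (CPM) of each of the 8 genes in each library, with black for DMSO, red for dTAG, circles for replicate 1, squares for replicate 2 and lines for the mean ± SD (n = 2). The groups are farthest apart relative to their spread in MORC2 (38.1 and 38.3 against 27.0 and 29.1 CPM), and they overlap in MPHOSPH8.

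MORC2 (ENSG00000133422.12) is an ATPase of the MORC family that HUSH needs to silence chromatin, and it lies on the minus strand of chromosome 22 of hg38 from 30925129 to 30968298. It stood at 38.1 and 38.3 CPM in DMSO replicates 1 and 2 and at 27.0 and 29.1 CPM in dTAG replicates 1 and 2. The DMSO libraries were almost equal, and both dTAG libraries lay well under them. The means were 38.2 ± 0.138 CPM with DMSO and 28.03 ± 1.51 CPM with dTAG (SD, n = 2). The log2 fold change was -0.45 (standard error 0.097, adjusted p = 0.0089 in the edgeR quasi-likelihood fit), at the 5.28th percentile of all tested genes. Each value rests on 2626 to 3819 counts. The call held without either DMSO library but not without a dTAG library: the log2 fold change was -0.39 (adjusted p = 0.34) without dTAG replicate 1 and -0.50 (adjusted p = 0.29) without dTAG replicate 2, in fits where the lone library is assumed to vary like the others. Over all alternatives the adjusted p lay between 2.1e-06 and 0.72. Among the tested genes, those whose log2 CPM, taken relative to their own mean over the 4 libraries, came closest to MORC2 included SECTM1 and SRRM5, at Euclidean distances of 0.024 and 0.039, and neither was called.

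ATF7IP (ENSG00000171681.12), the partner that stabilises SETDB1, lies on the plus strand of chromosome 12 from 14365631 to 14502935. It stood at 242 and 204 CPM with DMSO and at 165 and 189 CPM with dTAG. The groups did not overlap, though DMSO replicate 2 and dTAG replicate 2 were close. The means were 223 ± 27.2 CPM and 177 ± 16.6 CPM (SD, n = 2), and the log2 fold change was -0.33 (standard error 0.099). The adjusted p was 0.047 in the edgeR quasi-likelihood fit, just under the threshold, and requiring 10 counts in place of 50 took it to 0.053. Over the alternatives it lay between 7.7e-19 (ERCC factor as a covariate) and 0.67 (ERCC totals as library sizes). The fit with the ERCC factor had the largest share of false calls on simulated data. Those data held no variation shared between genes, which the factor is meant to remove. They cannot show how the factor does on the real libraries. The log2 fold change was -0.20 without DMSO replicate 1 (called) and -0.45 without DMSO replicate 2 (called). Without dTAG replicate 1 it was -0.24 (adjusted p = 0.63) and without dTAG replicate 2 it was -0.43 (adjusted p = 0.57).

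Of the HUSH subunits, TASOR was lower with dTAG in both libraries without passing the test, and MPHOSPH8 and PPHLN1 had positive log2 fold changes. TASOR (ENSG00000163946.13, chromosome 3 from 56620132 to 56683237, minus strand) is the scaffold of the complex. It had 88.4 and 75.9 CPM with DMSO and 69.9 and 71.6 CPM with dTAG. The dTAG libraries were close to each other, and the DMSO libraries were apart. Its log2 fold change was -0.22 (standard error 0.089, adjusted p = 0.13 in the edgeR quasi-likelihood fit). TASOR was called with upper-quartile normalization (-0.29, adjusted p = 0.044 in the edgeR quasi-likelihood fit). With that scaling the median of all tested genes moved to -0.088, and 869 genes were called lower and 255 higher. TASOR stood at -0.32 without DMSO replicate 2 and at -0.10 without DMSO replicate 1.

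MPHOSPH8 (ENSG00000196199.13, chromosome 13 from 19633680 to 19673459, plus strand) reads H3K9me3 through its chromodomain. Its libraries had 67.4 and 64.2 CPM with DMSO and 66.0 and 70.8 CPM with dTAG. The log2 fold change of 0.055 (standard error 0.085, adjusted p = 0.71) was within the spread between replicates. PPHLN1 (ENSG00000134283.17, chromosome 12 from 42238446 to 42459715, plus strand) binds RNA. It had 273 and 239 CPM with DMSO and 277 and 289 CPM with dTAG, so that dTAG replicate 1 was only slightly above DMSO replicate 1. The log2 fold change was 0.14 (standard error 0.095, adjusted p = 0.33), and without DMSO replicate 1 it was 0.24. The last 2960 bases of PPHLN1 overlap PRICKLE1 on the opposite strand, a gene of planar cell polarity whose nascent RNA rose with dTAG (log2 fold change 0.77, adjusted p = 5.2e-05). PRICKLE1 was called in every alternative but the one with ERCC totals as library sizes, with adjusted p from 7.0e-17 to 0.47 over all. PPHLN1 also shares 14042 bases with ZCRB1 and TASOR 1687 bases with CCDC66, both on the opposite strand. ZCRB1 had a log2 fold change of 0.040 and CCDC66 one of 0.24, neither called.

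The methyltransferase genes went in different directions and none was called. EHMT2 (ENSG00000204371.11, chromosome 6 from 31879758 to 31897687, minus strand) had 40.1 and 43.7 CPM with DMSO and 34.1 and 36.1 CPM with dTAG. Both dTAG libraries were lower, and the log2 fold change was -0.26 (standard error 0.095, adjusted p = 0.096). Its partner EHMT1 (ENSG00000181090.20, chromosome 9 from 137618962 to 137870016, plus strand) had 249 and 250 CPM with DMSO and 251 and 277 CPM with dTAG. Of these, dTAG replicate 2 stood apart, and the log2 fold change was 0.082 (standard error 0.091, adjusted p = 0.58). An annotated long noncoding RNA gene (ENSG00000283411) overlaps 36.7% of EHMT1 on the same strand. The counts of EHMT1 cannot tell its reads apart. SUV39H2 (ENSG00000152455.15, chromosome 10 from 14878819 to 14904315, plus strand) had 71.9 and 65.8 CPM with DMSO and 78.4 and 83.3 CPM with dTAG. Both dTAG libraries were higher, and the log2 fold change was 0.23 (standard error 0.085, adjusted p = 0.093), at the 90.2th percentile of all tested genes. Adjusted p-values are from the edgeR quasi-likelihood fit. Without DMSO replicate 1, the log2 fold change was -0.32 for EHMT2 and 0.30 for SUV39H2. SUV39H2 shares 6958 bases, 27.3% of its length, with DCLRE1C on the opposite strand, a DNA repair nuclease gene with a log2 fold change of -0.014.

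Levels of nascent RNA were compared between the genes as CPM per kilobase of gene, since the genes are from 17930 bases (EHMT2) to 251055 bases (EHMT1) long. With DMSO the order was SUV39H2 at 2.699 ± 0.169, EHMT2 at 2.34 ± 0.142, MPHOSPH8 at 1.66 ± 0.056, ATF7IP at 1.62 ± 0.198, TASOR at 1.30 ± 0.141, PPHLN1 at 1.16 ± 0.110, EHMT1 at 0.992 ± 0.0032 and MORC2 at 0.884 ± 0.0032 CPM per kilobase (SD, n = 2). The DMSO libraries of MPHOSPH8 and ATF7IP overlapped, as did those of TASOR and PPHLN1, while other neighbours in this order did not. The median of all tested genes was 1.06 CPM per kilobase, so that 6 of the 8 genes were above it, with SUV39H2 at the 79.2th percentile and MORC2 at the 44.3th. With dTAG the order was the same except that PPHLN1 (1.28 ± 0.038) stood above TASOR (1.12 ± 0.019). PPHLN1 was divided by its whole counted interval, which begins 87721 bases from the nearest RefSeq start. Its level and its place in the order depend on that length.

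**Figure D2:**
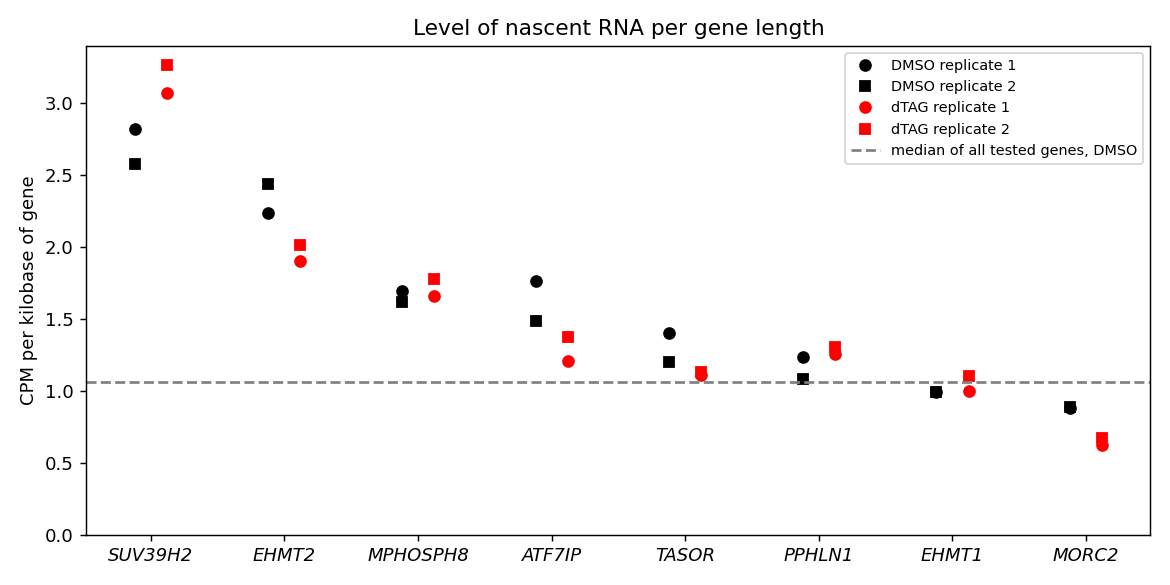
CPM per kilobase of gene for the 8 genes in each library, ordered by the DMSO mean, with black for DMSO, red for dTAG, circles for replicate 1 and squares for replicate 2. The dashed line is the median of all tested genes (1.06), and EHMT1 and MORC2 lie under it with DMSO. The place of PPHLN1 depends on its counted interval, which begins far from the nearest RefSeq start.

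Ratios of genes whose products work together were taken within each library, so that they do not depend on how libraries were scaled. The log2 ratio of EHMT1 to EHMT2 CPM was 2.63 and 2.51 with DMSO and 2.88 and 2.94 with dTAG, a rise in the mean of 0.34 with a pooled SD of 0.067. The log2 ratio of PPHLN1 to TASOR was 1.63 and 1.66 with DMSO and 1.99 and 2.01 with dTAG. That of MPHOSPH8 to TASOR was -0.39 and -0.24 with DMSO and -0.084 and -0.016 with dTAG. Relative to SETDB1, ATF7IP had log2 ratios of 1.99 and 1.701 with DMSO and 1.37 and 1.56 with dTAG, whereas SETDB1 itself had a log2 fold change of 0.045 (adjusted p = 0.76 in the edgeR quasi-likelihood fit). SUV39H2 over its paralog SUV39H1 gave 1.502 and 1.09 with DMSO and 1.66 and 1.702 with dTAG, and the DMSO libraries differed most here. In all 5 ratios the groups did not overlap. The two-sided exact permutation test gave p = 0.333 for each, the smallest value that 2 against 2 libraries allow. The share of all gene pairs without overlap was not computed. Of single tested genes, 28.1% had both dTAG libraries above both DMSO libraries and 30.7% had both below. Ratios that share TASOR are not independent. All 5 ratios still carry each library's trends on GC content and gene length. With these trends removed, the log2 fold changes were 0.14 for EHMT1 and -0.082 for EHMT2, and 0.15 for SUV39H2 and 0.037 for SUV39H1. They were then 0.031 for PPHLN1, 0.0054 for MPHOSPH8 and -0.35 for TASOR, and -0.52 for ATF7IP and 0.013 for SETDB1.

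The fold changes of the 8 genes depend on how GC content, gene length and the spike-in RNAs are treated. Across all tested genes the log2 fold change had a Spearman's rho of -0.56 with GC content and of 0.42 with gene length, given as a description since genes are not independent and share their libraries. ATF7IP has the lowest GC content of the 8 at 36.1%, followed by TASOR at 38.7%, and EHMT2 has the highest at 53.8%, against a median of 44.9% over tested genes. Between the DMSO libraries, replicate 2 minus replicate 1 was -0.25 for ATF7IP, -0.22 for TASOR, -0.19 for PPHLN1 and 0.12 for EHMT2 in log2 CPM, and 0.0073 for MORC2. After each library's trend on GC content and length was removed, ATF7IP had a log2 fold change of -0.52 (adjusted p = 6.5e-06) and TASOR one of -0.35 (adjusted p = 2.4e-04). MORC2 stayed at -0.46 (adjusted p = 3.8e-04), EHMT2 moved to -0.082 (adjusted p = 0.42), and SUV39H2 passed at a lower 0.15 (adjusted p = 0.042), all in the edgeR quasi-likelihood fit. MPHOSPH8, PPHLN1 and EHMT1 were then at 0.0054, 0.031 and 0.14, and not called. In this fit 7.45% of all tested genes were called lower and 10.6% higher. The part of base composition or length in the original values was not tested further.

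**Figure D3:**
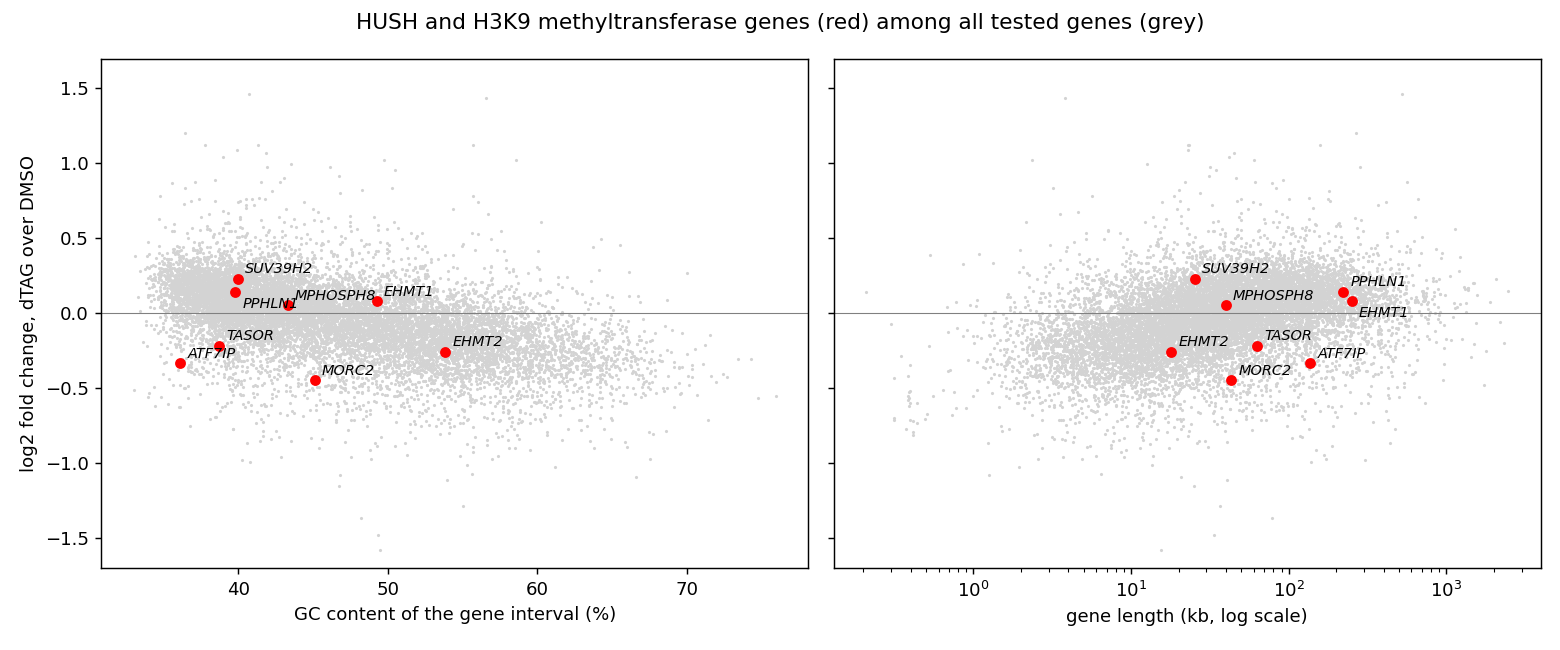
Log2 fold change of dTAG over DMSO against the GC content of the gene interval (left, %) and gene length (right, kb, log scale) for the 12612 tested genes in grey and the 8 genes in red. ATF7IP and TASOR lie below most genes of their GC content, whereas EHMT2 lies within the bulk of GC-rich genes.

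ERCC RNAs are spike-ins that were added to the nascent RNA before library preparation. With 1 factor of unwanted variation estimated from 14 of them as a covariate, TASOR (-0.39), MORC2 (-0.47) and ATF7IP (-0.58) were called lower, as were 4.17% of all tested genes. The ERCC totals were 14798 and 25165 counts in DMSO replicates 1 and 2 and 13870 and 9551 in dTAG replicates 1 and 2. They thus differed between replicates of a group. When these totals served as library sizes, the median of all tested genes was 0.63. In that edgeR quasi-likelihood fit 229 genes had an unadjusted p under 0.05 and 0 were called. Each of the 8 genes then had a positive log2 fold change. MORC2 (0.21), ATF7IP (0.29), TASOR (0.40) and EHMT2 (0.41) were below that median, and MPHOSPH8, EHMT1, PPHLN1 and SUV39H2 (0.70 to 0.87) were above it.

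**Figure D4:**
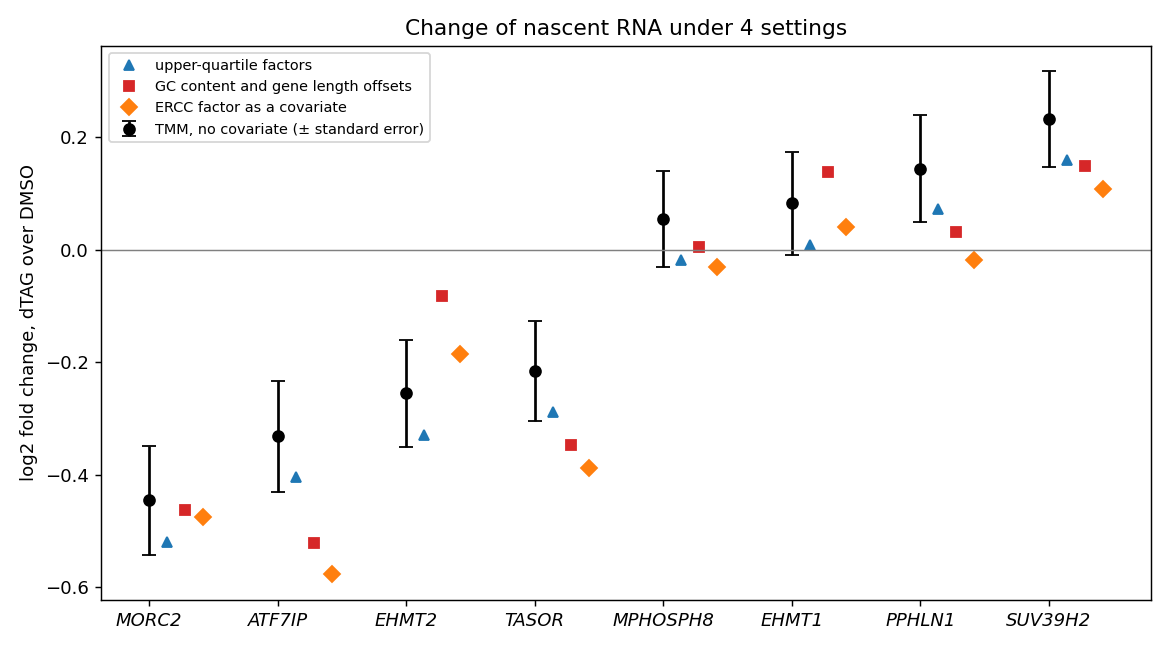
Log2 fold change of dTAG over DMSO for each of the 8 genes with TMM (black, ± standard error), upper-quartile normalization (blue), the trends on GC content and length removed (red) and the ERCC factor as a covariate (orange). MORC2, ATF7IP and TASOR are negative in all 4 settings, EHMT2 is at -0.082 in 1 of them and both MPHOSPH8 and PPHLN1 cross 0, while with ERCC totals (not drawn) all 8 are positive.

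Related genes were read from 4 lists. Of 9 HUSH partners and relatives, 8 were tested, and 2 were called higher and 0 lower (3.44% and 3.66% of all tested genes were). At an unadjusted p under 0.05 in the edgeR quasi-likelihood fit, 6 of these relatives passed, against 26.6% of all tested genes. All 8 had both dTAG libraries above both DMSO libraries (28.1% of all tested genes did) and a median log2 fold change of 0.24, but SETDB1 turned to -0.029 with upper-quartile factors. ATF7IP2, the paralog of ATF7IP, had 44.01 and 37.4 CPM with DMSO and 54.9 and 55.1 CPM with dTAG, a rise of 0.43 on the log2 scale (standard error 0.095, adjusted p = 0.0090), whereas ATF7IP fell. ZCCHC8, the scaffold of the NEXT complex that hands nuclear RNA to the exosome and works with HUSH, had 83.6 and 82.0 CPM with DMSO and 99.7 and 117 CPM with dTAG. It rose by 0.39 (standard error 0.089, adjusted p = 0.013 in the edgeR quasi-likelihood fit). Both were called also with the ERCC factor (0.26 and 0.29) and after removal of the trends on GC content and length (0.34 for each), and their adjusted p ranged from 1.1e-09 to 0.47 and from 5.0e-07 to 0.90 over the alternatives. Their log2 fold changes were 0.44 and 0.50 without dTAG replicate 1, and 0.43 and 0.27 without dTAG replicate 2. Neither was called in these 2 fits, which called few genes of any kind. These genes have GC contents from 36.9% to 44.2%, and their median was 0.083 after removal of the trends, 0.37 without DMSO replicate 1 and 0.11 without DMSO replicate 2. MORC4 and MTREX, the helicase of NEXT, had log2 fold changes of 0.25 each and did not pass. RBM7, the RNA-binding subunit of NEXT, had 5 to 14 counts and was not tested, and 95.4% of its interval lies in another gene of the same strand.

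The other lists had no called gene in the edgeR quasi-likelihood fit with TMM and all 4 libraries, whereas the likelihood ratio test called ZNF644 and SMCHD1. Among 7 other H3K9 methyltransferases and G9a/GLP cofactors, 3 were higher and 4 lower, with a median of -0.042. The ends were ZNF644, a zinc finger partner of G9a, at 0.27 (adjusted p = 0.089) and SUV39H1 at -0.16 (adjusted p = 0.37 in the edgeR quasi-likelihood fit). Of 10 HP1 proteins and other readers, 9 were tested, with a median of 0.0091. SMCHD1, a structural protein of silent chromatin, stood at 0.31 (adjusted p = 0.065) and LRIF1, which binds HP1, at -0.16 (adjusted p = 0.41). Of 11 H3K9 demethylases, 10 were tested, with a median of 0.044, and JMJD1C and KDM4C were highest at 0.21 and 0.20. KDM4A had 0 counts in all libraries, and its interval lies wholly inside another gene of the same strand. At an unadjusted p under 0.05, 1 gene passed in each of these 3 lists (26.6% of all tested genes did), and DESeq2 called 0, 1 (SMCHD1) and 0 genes (9.93% of all tested genes). After removal of the trends on GC content and length, the same lists had 0, 2 and 3 genes called higher and 1, 2 and 1 called lower, CDYL counting in both of the first lists, and 10.6% of all tested genes were called higher and 7.45% lower.

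**Figure D5:**
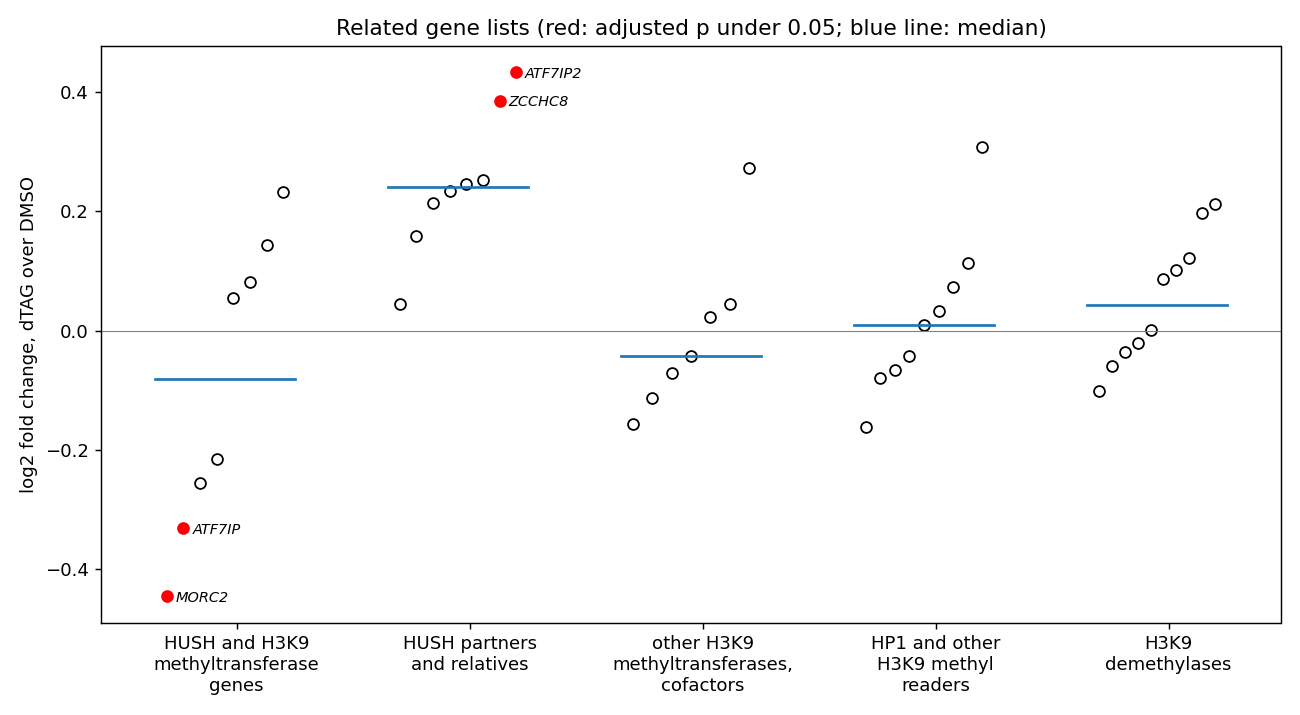
Log2 fold change of dTAG over DMSO for each tested gene of the 8 and of the 4 related lists, with red for an adjusted p under 0.05 and a blue line at the median of each list. MORC2 and ATF7IP are called lower and ATF7IP2 and ZCCHC8 higher, and the medians lie between -0.081 and 0.24.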

How the data were processed

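The data are TT-Seq libraries from 2 DMSO and 2 dTAG samples. The deposited values are raw counts, which the authors made over whole protein-coding genes by featureCounts (Subread 1.6.3), after Trim Galore 0.6.4 and alignment by STAR 2.7.3a to hg38, for 19901 genes and 92 ERCC RNAs. The sources used here do not give the strand setting. All 4 columns were used. Identifiers were matched to symbols without their version (19802 genes). GC content was computed over each interval in hg38, and promoters were read from RefSeq (GRCh38.p14), taking the start nearest to the counted gene.

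Counts were tested in R 4.3.3 with edgeR 4.0.16: a minimum of 50 counts in each of the 4 libraries, TMM, 1 term for dTAG, the quasi-likelihood F test, two-sided, and Benjamini-Hochberg adjustment over 12612 genes. Standard errors are log2 fold changes, without sign, over √F. SDs are over 2 libraries. Gene counts per library were from 93105627 to 102314741, and replicates differed beyond counting error (chi-square per degree of freedom 51.3 for DMSO and 15.1 for dTAG), so the 2 replicates limit the precision. P-values measure the spread between these libraries.

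Alternatives were DESeq2 1.42.0, upper-quartile factors, ERCC totals as library sizes, an ERCC factor after RUVg (1 count added), the likelihood ratio test, other count minimums, a replicate block, offsets for GC content and gene length (lowess, span 0.3), and leaving out each library. A crossed block was chosen after seeing the data. The fits were tested on simulated data, where the fit with the ERCC factor recovered the smallest share of changed genes and had the largest share of false calls. Each gene was simulated on its own, without the shared variation that the factor is meant to remove. The simulation therefore cannot show how that fit does on the real libraries. The 8 genes, the lists and the alternatives were chosen with earlier results of these data known. Named are the 8 genes, TRIM28, called genes of the lists and the 2 largest changes among uncalled ones in each, genes overlapping a member, the partners in ratios, and the 3 genes closest in pattern to the gene with the lowest adjusted p, of which 1 is not reported here.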

Additional observations from a re-analysis of the deposited data

How the results depend on the processing

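Over 15 alternatives, 92 of 120 log2 fold changes of the 8 genes kept their direction and their side of the threshold, 15 gained a call, 6 lost one and 7 changed sign. With ERCC totals as library sizes, TASOR (0.40), EHMT2 (0.41), ATF7IP (0.29), MORC2 (0.21), DCLRE1C (0.63), LRIF1 (0.48), SECTM1 (0.20), SRRM5 (0.23), SUV39H1 (0.53) and TRIM28 (0.28) changed sign, the median of the 8 genes was 0.55, and 0 genes were called higher, 0 lower and 0 of the 8 (229 genes and 0 of the 8 at an unadjusted p under 0.05). With upper-quartile factors, MPHOSPH8 (-0.019), SETDB1 (-0.029) and ZCRB1 (-0.032) changed sign, the median was -0.15, 255 genes were higher and 869 lower, and 4 of the 8 were called lower. With the ERCC factor, MPHOSPH8 (-0.031), PPHLN1 (-0.018), DCLRE1C (0.018), JMJD1C (-0.040), SUV39H1 (0.053) and ZCRB1 (-0.20) changed sign, and 796 genes were higher. After removal of the trends on GC content and length, 1341 genes were higher and 939 lower, 1 of the 8 was called higher, and SUV39H1 (0.037) and ZCRB1 (-0.063) changed sign. These offsets with the replicate block gave 1503 higher and 1125 lower, 2 of the 8 higher, SUV39H1 at 0.037 and ZCRB1 at -0.063. DESeq2 called 680 genes higher, the likelihood ratio test 729 higher and 864 lower, and no count filter 673 higher and 744 lower. The minimum of 10 counts left 1 of the 8 called lower.

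The replicate numbers are not stated to pair the samples, and the differences between replicates 1 and 2 in DMSO and dTAG had r = -0.25 across 12612 genes. With the replicate block, 162 genes were called higher and 178 lower, 1 of them (MORC2) among the 8, where ATF7IP stood at -0.33 (adjusted p = 0.17). The crossed pairing gave 1587 and 1603 calls, with 1 of the 8 higher and 4 lower.

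Leaving out each library gave 48 to 2798 genes higher and 21 to 2693 lower, with 0 to 2 of the 8 higher, 0 to 3 lower and a median between -0.12 and -0.011. ZCRB1 then ranged from -0.086 to 0.18 (negative without DMSO replicate 2, and at -0.037 without dTAG replicate 2) and DCLRE1C from -0.028 to 8.8e-04 (positive without dTAG replicate 2). The causes were not tested.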
